A study of Mus musculus with 14 samples.

Results

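Contacts of 2 baits in the introns of Stag1 were compared in mouse embryonic stem cells (ESC) by UMI-4C. The comparison used the 7 ESC libraries of Nanog bait 1 and Nanog bait 2 out of the 14 libraries of the series, counted as 5 samples because 2 pairs are repeat libraries, and divided the surrounding chromosome into the same 99 windows for both baits. Libraries were chosen by their titles, 4 from bait 1 and 3 from bait 2. The fragment end with the most partners in a library was taken as its bait, and contacts were followed over 20 kb windows of chr9:99640001-101620000 (GRCm38), leaving out ends within 10 kb of either bait. The remaining libraries of the series came from another bait, named CTCF, and from neural stem cells (NSC). All ESC were untreated and grown in 2i medium with LIF, and the study's methods name them as male E14 cells. Both groups therefore share genotype, culture and treatment, and they differ in the bait. The labels do not state what Nanog stands for in the bait names. UMI-4C measures no expression, so the cell type could not be checked against marker genes.

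Stag1 encodes a subunit of cohesin, the ring-shaped complex that holds sister chromatids together and folds interphase chromosomes into loops, often ending where the DNA-binding protein CTCF is bound. UMI-4C reads this folding from the viewpoint of a single fragment. Crosslinked chromatin is cut and ligated, products joined to the bait are sequenced, and each original molecule is counted once as a unique molecular identifier (UMI). Contact frequency falls with distance along the chromosome, so a pair of baits close to each other is expected to give similar profiles that are shifted by the distance between them unless particular regions hold contacts at a fixed position.

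Bait 1 lies at position 100619989 and bait 2 at position 100641698 of chromosome 9, 21.7 kb apart in the same intron of Stag1 (ENSMUSG00000037286.15, plus strand, 100597798 to 100959375). The first annotated Stag1 start is 22.2 kb from bait 1 and 43.9 kb from bait 2, both baits lying downstream of it. The next annotated start, at 100643448, is 1750 bp past bait 2 and thus within the stretch left out. All listed ends of the region (5702 distinct positions, 100%) lay at GATC sites, taken here as the cut sites, against 0.544% when positions were moved by 100 bp. The sequences at the baits are shown because they define the viewpoints. They are followed by the partner ends with the highest and second highest mean share over both baits among ends more than 20 kb from each. All are from the plus strand of chromosome 9 in the RefSeq copy of GRCm38, 5′ to 3′, with the GATC site in capitals.
bait 1, Stag1 intron, chr9:100619974-100620003: caagtactgcgctGATCcacttcctgttgg
bait 2, Stag1 intron, chr9:100641684-100641713: ggttggactgtagGATCtaaaacacaaaaa
first Stag1 exon, chr9:100598015-100598044: atagagaccactgGATCgtgagagctgtga
between Nck1 and Slc35g2, chr9:100547100-100547129: aatgagggtatagGATCttctggaactgga

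The end in the first Stag1 exon held 0.118% and 0.163% of the UMIs of the region in the bait 1 samples and 0.1002%, 0.245% and 0.186% in the bait 2 samples. It ranked 9 from bait 1 and 2 from bait 2. The end between Nck1 and Slc35g2 held 0.0538% and 0.163% from bait 1 and 0.0859%, 0.245% and 0.279% from bait 2. It ranked 45 from bait 1 and 1 from bait 2. Single ends rest on few UMIs and the samples of the baits overlapped at both, so contacts were compared over windows. Of the ends seen, 3178 were seen from both baits, which is 65.5% of the 4849 ends seen from bait 1 and 78.8% of the 4031 seen from bait 2. These shared ends held between 85.02% and 94.1% of the UMIs of each sample.

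The libraries held 7172 to 28164 UMIs in all and 2860 to 9343 in the region. At these depths the limit that a count of 0 allows, 3 UMIs, corresponds to 0.0321% to 0.105% of the region. Replicates 1 and 4 of bait 1, and replicates 2 and 3 of bait 1, shared 82.6% to 85.7% of their ends on other chromosomes, where the other pairs of libraries shared at most 0.423%. Each of these pairs was averaged and counted as 1 sample, so that n = 2 for bait 1 and n = 3 for bait 2. Shares are given below in the order bait 1 replicates 1 and 4, bait 1 replicates 2 and 3, then bait 2 replicates 1, 2 and 3. Each bait thus had a deeper sample (9292 UMIs for bait 1 replicates 1 and 4, 6983 for bait 2 replicate 1) and shallower samples (4594, and 2860 and 3224). No source used here states that the replicates came from separate cultures, so p-values measure the spread between these samples, which may be technical.

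The same 3 windows, from the 5′ end of Nck1 to the first Stag1 start, held the most contacts from both baits, windows next to the baits being counted only in part. The highest from bait 1 was that of the first Stag1 start, with a share of 8.25% ± 1.19 (SD, n = 2), and the highest from bait 2 was that of the 5′ end of Nck1, with 8.65% ± 1.22 (SD, n = 3). The window at the first Stag1 start came second from bait 2 and the window at Nck1 came second from bait 1. Nck1 encodes an adaptor protein that links receptor tyrosine kinases to the actin cytoskeleton. Across windows the shares of a bait 1 and a bait 2 sample had Spearman correlations of 0.898 to 0.916 (6 pairs), those of the bait 1 samples 0.947 (1 pair), and those of the bait 2 samples 0.880 to 0.897 (3 pairs). These correlations describe 99 windows of the same stretch of chromosome, and all points share the decay with distance and the density of GATC sites. In chi-square per degree of freedom, which is near 1 when only counting error separates a pair, the 6 pairs across baits ranged from 1.59 to 2.80. Unlike the correlations, this measure took only windows with at least 10 UMIs in the pair, from 66 to 99 windows depending on the pair. The bait 1 pair gave 1.36 and the bait 2 pairs 1.19 to 2.18, so that pairs of bait 2 samples reached into the range across baits. The higher bait 2 values, 1.96 and 2.18, both involve replicate 1, the deeper library. In windows more than 100 kb from both baits the values fell to 1.27 to 2.04 across baits, 1.06 for bait 1 and 1.18 to 1.53 for bait 2. Chi-square also depends on the UMIs per window, so this fall does not show closer profiles. The Spearman correlations in these windows fell too, to 0.858 to 0.882 across baits, 0.926 for bait 1 and 0.830 to 0.855 for bait 2.

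**Figure D1:**
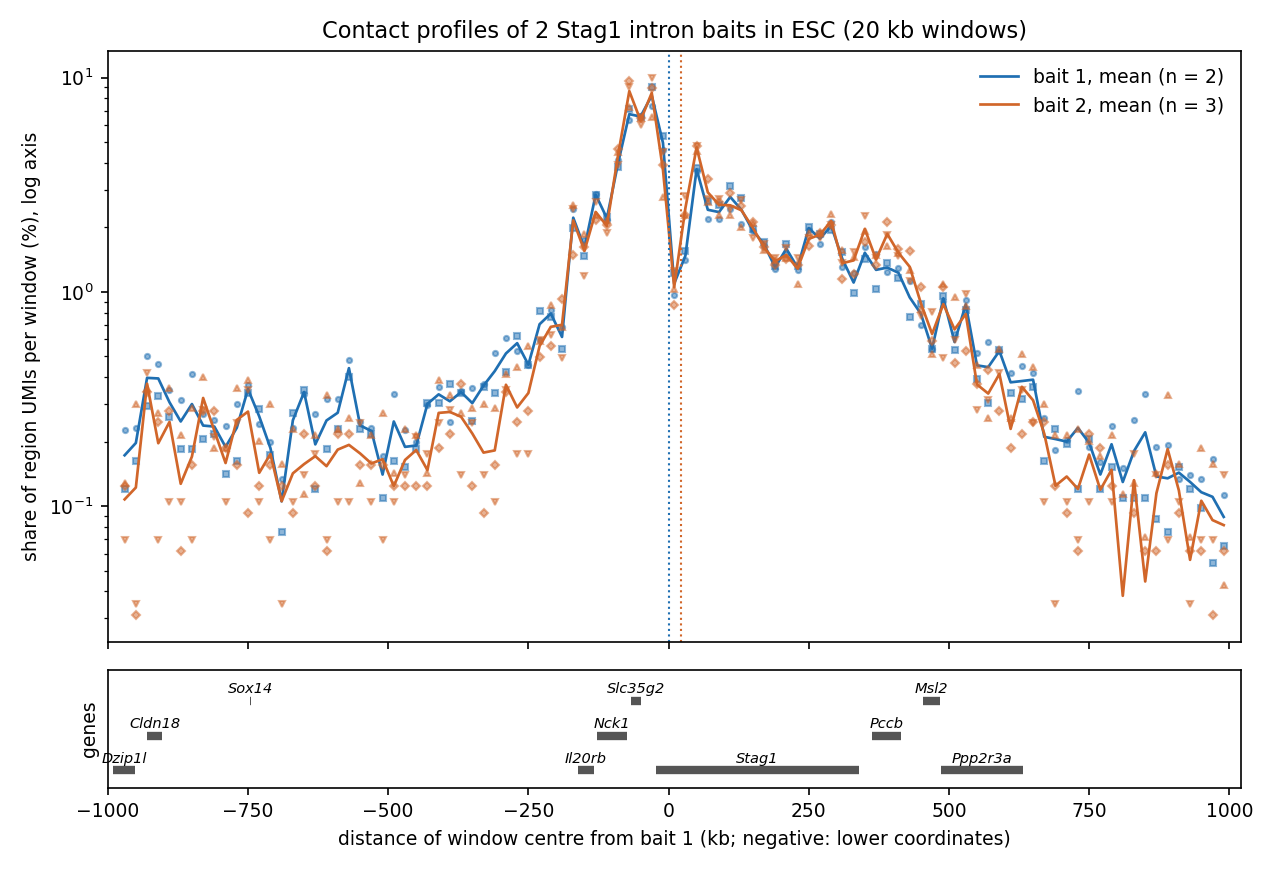
Share of the UMIs of the region in each 20 kb window (percent, log axis) against the distance of the window centre from bait 1 (kb), with genes drawn below. Blue is bait 1 (line, mean of n = 2) and orange bait 2 (line, mean of n = 3), symbols are single samples, values of 0 are not drawn and dotted lines mark the baits. Both profiles peak at lower coordinates than the baits, over the first Stag1 start (8.25% and 8.49%) and the Nck1 to Slc35g2 stretch (6.76% and 8.65%), and windows next to the baits are partly left out.

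The edgeR quasi-likelihood test on window counts called 1 of 99 windows at an adjusted p under 0.05 (1.01%), and it was higher from bait 2. This window, chr9:100640001-100660000, lies in Stag1 and only the 8.30 kb of it beyond 10 kb of bait 2 was counted, centred 14.2 kb from bait 2 and 35.9 kb from bait 1. It held 1.404% and 1.55% of the UMIs from bait 1 and 2.29%, 2.80% and 2.30% from bait 2. Every bait 2 sample was above both bait 1 samples. Such a lack of overlap, in either direction, was seen in 29 of 99 windows (29.3%), so it does not set a window apart. The log2 ratio of bait 2 over bait 1 was 0.74 ± 0.15 (SE; edgeR adjusted p = 0.00147). The ratio that distance alone would give, from a single decay curve fitted to both baits, was 1.03 on the log2 scale. The curve was fitted to windows counted in full, the nearest centred 28.3 kb from a bait. It was extended as a straight line to shorter distances. The counted part of this window lies in that extension for bait 2, so the 1.03 is extrapolated. The call was lost in 6 of 19 alternatives (adjusted p 0.000284 to 0.679), among them leaving out bait 1 replicates 1 and 4 or bait 2 replicate 2, and the ratio stayed between 0.47 and 0.94. Without bait 2 replicate 1, 12 windows were called, 3 higher from bait 2 and 9 higher from bait 1. With all chromosome 9 UMIs as library size, 1 window was called, another one and higher from bait 1. With the replicate number as a block, 6 windows were called (6.06%), 4 higher from bait 2. The block takes bait 1 replicates 2 and 3, which are repeat libraries, as separate samples, so its p-values are too small here and wherever they are given below.

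Because the baits are 21.7 kb apart, each window was also compared with what its distance from each bait gives. This fit asks whether the ratio of bait 2 over bait 1 in a window differs from the ratio that the pooled decay curve gives for its distances. It called 3 of 99 windows (3.03%), all higher from bait 2 and all on the lower-coordinate side, from the 5′ end of Nck1 to the first intron of Stag1. The median of this log2 ratio over all windows was -0.20, and in the unscaled fit it was -0.15, so ratios near these values do not stand apart from the windows as a whole.

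The window at the 5′ end of Nck1, chr9:100540001-100560000, also reaches into the 3′ part of Slc35g2, which encodes a membrane protein of the solute carrier 35 family. It lies 70.0 kb from bait 1 and 91.7 kb from bait 2. It held 6.35% and 7.16% of the UMIs from bait 1 and 7.29%, 9.02% and 9.65% from bait 2. Although farther from bait 2, it was higher in each bait 2 sample than in both bait 1 samples, where 29 of 99 windows (29.3%) had samples without overlap. The unscaled log2 ratio was 0.35 ± 0.14 (SE; edgeR adjusted p = 0.240), where distance alone would give -0.31. The distance-scaled log2 ratio was therefore 0.66 ± 0.14 (SE; edgeR adjusted p = 0.00182). With the replicate block the unscaled value was 0.30 (edgeR adjusted p = 0.00382). Without bait 2 replicate 1 it was 0.48 (edgeR adjusted p = 0.00291). With TMM factors it was 0.53 (edgeR adjusted p = 0.299), and with DESeq2 0.56 (DESeq2 adjusted p = 0.689). The window contained 52 GATC sites, and 103 distinct ends in it were seen from each bait.

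The window of the first Stag1 start, chr9:100580001-100600000, lies 29.99 kb from bait 1 and 51.7 kb from bait 2. It held 7.40% and 9.09% of the UMIs from bait 1 and 6.56%, 10% and 8.90% from bait 2. The samples of the baits overlapped, the lowest and the highest value both being from bait 2, and the unscaled log2 ratio was 0.03 ± 0.15 (SE; edgeR adjusted p = 0.950). Distance alone would give -0.61, and the distance-scaled log2 ratio was 0.64 ± 0.15 (SE; edgeR adjusted p = 0.00417).

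The next window, chr9:100600001-100620000, is the part of Stag1 just upstream of bait 1, of which 9.99 kb was counted. It held 4.57% and 5.35% of the UMIs from bait 1 and 2.76%, 4.48% and 3.91% from bait 2. All bait 2 samples were lower than both bait 1 samples, with an unscaled log2 ratio of -0.46 ± 0.15 (SE; edgeR adjusted p = 0.0878), and with the replicate block -0.52 (edgeR adjusted p = 0.00114). It was called with the deeper library of each repeat pair (edgeR adjusted p = 0.0336), without bait 1 replicate 2 (edgeR adjusted p = 0.0470) and without bait 1 replicate 4 (edgeR adjusted p = 0.0428). Without bait 2 replicate 1 the ratio was -0.23 (edgeR adjusted p = 0.276). With TMM factors it was -0.26 (edgeR adjusted p = 0.668), and with DESeq2 -0.22 (DESeq2 adjusted p = 0.993). Counting every end a single time turned the unscaled value to 0.41 (edgeR adjusted p = 0.679). The fall was smaller than the log2 ratio of -0.99 from distance alone, which gave a distance-scaled value of 0.54 ± 0.15 (SE; edgeR adjusted p = 0.0258). The counted part lies closer to bait 1 than the distances fitted, so the -0.99 and this call rest on the extended part of the decay curve. The window between the called ones, in Slc35g2 (100560001 to 100580000), was not called and is named here after its values were seen. It had a distance-scaled log2 ratio of 0.35 (edgeR adjusted p = 0.143), or 0.37 with the replicate block (edgeR adjusted p = 0.000194), and in the unscaled shares it held 6.58% from bait 1 and 6.31% from bait 2.

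The distance-scaled calls depended on single samples and on the scaling. With TMM factors or with all chromosome 9 UMIs as library size, 1 window was called in place of the 3, chr9:101460001-101480000, and it was higher from bait 1. It is named here after its values were seen and held 43 UMIs in all. None of the 3 was called without bait 1 replicates 1 and 4, without bait 2 replicate 2 or without bait 2 replicate 3, and none with TMM factors (adjusted p = 0.0646 for each). The window at 100600001 was also not called without bait 1 replicates 2 and 3. Their adjusted p ranged from 1.38e-09 to 0.621 over the alternatives, and their log2 ratios stayed above 0, at 0.17 to 0.88. Without bait 2 replicate 1, 10 windows were called, 4 higher from bait 2 and 6 higher from bait 1. With the replicate number as a block, 9 windows were called (9.09%), 5 of them higher from bait 2, and they included all 3.

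Over all windows, 72 of 99 (72.7%) had a distance-scaled log2 ratio below 0. Their median of -0.20 moved to -0.04 with TMM factors and -0.03 with DESeq2 size factors, so this share rests on the scaling. Within 250 kb of the midpoint of the baits, 10 of 12 windows at lower coordinates were above 0 and 2 below, with a median of 0.29, and all 12 were above the median of all windows. At higher coordinates, 0 of 12 windows were above 0 and 12 below, with a median of -0.29, near that of all windows, and 9 of the 12 were below the median of all windows. None of these 12 passed the test, whereas with the replicate block 3 did, at 100660001 (-0.32), 100720001 (-0.46) and 100740001 (-0.35), named here after their values were seen.

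**Figure D2:**
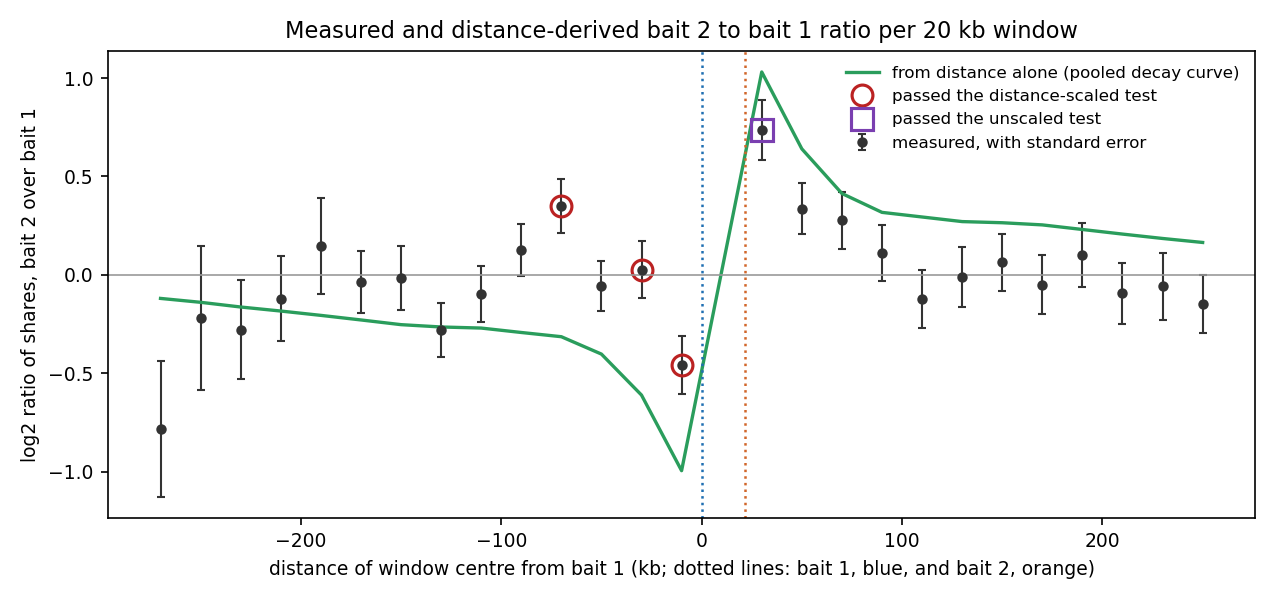
Log2 ratio of bait 2 over bait 1 in 20 kb windows against the distance of the window centre from bait 1 (kb). Points are edgeR estimates with a standard error derived from the F statistic of the test, 2 against 3 samples. The green line is the ratio from distance alone, extrapolated beyond the fitted distances at the partly counted windows next to the baits. Red circles mark windows that passed the distance-scaled test and the purple square the window that passed the unscaled test. A window with 1.71 kb left between the baits is not drawn. Within 250 kb of the baits, measured ratios lie above the green line in 10 of 12 windows at lower coordinates and below it in 12 of 12 at higher coordinates. Over all windows, 72 of 99 (72.7%) lie below it, a share that rests on the scaling. The measured ratio is 0.35 against -0.31 at Nck1 and 0.03 against -0.61 at the first Stag1 start.

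Farther away, the 3 windows with the highest mean share over both baits among those more than 100 kb from each were at the border of Il20rb and Nck1, near the CTCF bait and inside Stag1. The window at Il20rb and Nck1 (100480001 to 100500000) held 2.87% and 2.82% from bait 1 and 2.29%, 2.62% and 2.17% from bait 2. Il20rb encodes a receptor chain for interleukins of the interleukin-10 family. The samples did not overlap, but the log2 ratio of -0.28 ± 0.14 (SE) did not pass the edgeR test (adjusted p = 0.374). It was close to the distance-derived ratio of -0.26 in the main scaling, but was -0.12 with TMM factors and -0.08 with DESeq2.

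The window of the CTCF bait, chr9:100440001-100460000, held 2.45% and 1.99% from bait 1 and 2.53%, 2.45% and 1.49% from bait 2. Its neighbour at lower coordinates (100420001 to 100440000), named for comparison after its values were seen, held 0.616% from bait 1 and 0.702% from bait 2. Shares of both baits were lower in that window, on the far side of the CTCF bait. That window holds 29 GATC sites against 54 in the CTCF bait window. Distance alone would give 1.36% against 1.58% from bait 1 and 1.18% against 1.35% from bait 2. The cause of the lower shares was not tested. The log2 ratio of the CTCF bait window was -0.04 ± 0.16 (SE; edgeR adjusted p = 0.950), and its sign changed with the scaling.

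Within Stag1, the window at 100740001 to 100760000 held 2.08% and 2.75% from bait 1 and 2.00%, 2.69% and 2.51% from bait 2, a log2 ratio of -0.01 ± 0.15 (SE; edgeR adjusted p = 0.966). Its sign also changed with the scaling. The window at the end of the gene, chr9:100940001-100960000, held 1.22% and 0.990% from bait 1 and 1.46%, 1.54% and 1.21% from bait 2. It was 308 kb from bait 2 and 330 kb from bait 1, and the highest bait 1 sample lay just above the lowest bait 2 sample. The log2 ratio of 0.31 ± 0.17 (SE) did not pass the edgeR test (adjusted p = 0.404), and distance alone would give 0.12. The ratio was 0.47 with TMM factors and 0.52 with DESeq2. It was 0.49 without bait 1 replicates 1 and 4 and 0.20 without bait 1 replicates 2 and 3.

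The window of Sox14, which encodes a transcription factor of neural development, lies 750 kb from bait 1. It held 0.366% and 0.337% from bait 1 and 0.387%, 0.350% and 0.0931% from bait 2. The value of bait 2 replicate 3 is 3 UMIs, and the log2 ratio of -0.28 ± 0.47 (SE; edgeR adjusted p = 0.868) could not be told from 0 at this depth.

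Grouped by gene, 0 of 20 intervals (0%) passed the edgeR test, where intervals are the bodies of the 10 protein-coding genes of the region and the stretches between them. By edgeR, 4 were below an unadjusted p of 0.05. DESeq2 also called 0, with 2 below an unadjusted p of 0.05. With the replicate number as a block, 5 of 20 (25%) were called, 4 of them higher from bait 2. Without bait 2 replicate 1, 4 were called.

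The body of Stag1 held the most contacts of any interval from both baits, with 36.7% and 41.1% from bait 1 and 37.4%, 42.0% and 40.4% from bait 2. The difference of 1.01 percentage points lay inside the spread of the samples (two-sided exact permutation p = 0.7). It was -0.0024 without bait 2 replicate 2, 2.29 without bait 2 replicate 1, -1.19 without bait 1 replicates 1 and 4, 3.22 without bait 1 replicates 2 and 3, and -0.42 in a region of 500 kb on each side. Split at the baits, the part of Stag1 upstream of bait 1 held 6.54% ± 0.890 (SD, n = 2) from bait 1 and 5.02% ± 1.26 (SD, n = 3) from bait 2. The part downstream of bait 2 held 31.3% ± 2.05 from bait 1 and 33.8% ± 1.01 from bait 2, and the samples overlapped in both parts.

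The stretch between Nck1 and Slc35g2 is only 6.05 kb long. It held 2.33% and 2.58% from bait 1 and 3.11%, 4.09% and 4.44% from bait 2. Per 100 kb this is 40.5% from bait 1 and 64.1% from bait 2, where the 26.7 kb between Slc35g2 and Stag1 held 37.3% and 39.5% per 100 kb. Every bait 2 sample was above both bait 1 samples. The log2 ratio was 0.65 ± 0.18 (SE; edgeR adjusted p = 0.159), and with the replicate block it was 0.59 (edgeR adjusted p = 1.85e-05). Without bait 2 replicate 1 it was 0.82 (edgeR adjusted p = 0.00790).

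The bodies of the genes on either side of it differed less. Nck1 held 9.24% and 9.06% from bait 1 and 9.67%, 9.58% and 10.6% from bait 2 (log2 ratio 0.12 ± 0.09, SE). This ratio ranged from 0.07 to 0.14 when libraries were left out. Slc35g2 held 5.63% and 5.88% from bait 1 and 5.11%, 5.28% and 5.09% from bait 2, with a log2 ratio of -0.16 ± 0.09 (SE). The samples of the baits did not overlap at either gene, but neither passed the edgeR test (adjusted p = 0.520 and 0.342).

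Beyond the end of Stag1, which is nearer to bait 2, the samples of the baits did not overlap in 3 intervals, of 7 without overlap among all 20 (35%). The stretch from Stag1 to Pccb held 1.84% and 1.62% from bait 1 and 2.16%, 2.55% and 2.05% from bait 2 (log2 ratio 0.37 ± 0.15, SE; edgeR adjusted p = 0.245, with the replicate block 0.0329). Pccb, which encodes a subunit of the mitochondrial enzyme propionyl-CoA carboxylase, held 3.68% and 3.15% from bait 1 and 4.11%, 3.95% and 4.22% from bait 2. The stretch from Pccb to Msl2 held 1.82% and 1.71% from bait 1 and 2.28%, 2.34% and 2.79% from bait 2. All bait 2 samples were above both bait 1 samples in each. The log2 ratios of 0.26 ± 0.11 and 0.47 ± 0.14 (SE) had edgeR adjusted p of 0.260 and 0.159, and with the replicate block 0.0270 and 0.00209. The stretch from Pccb to Msl2 had an edgeR adjusted p of 0.0473 without bait 2 replicate 1. Msl2, a gene for a ubiquitin ligase of the MSL histone acetyltransferase complex, held 0.995% and 1.11% from bait 1 and 1.10%, 1.15% and 1.21% from bait 2, and the samples overlapped. Ppp2r3a, which encodes a regulatory subunit of protein phosphatase 2A, held 4.54% and 3.67% from bait 1 and 4.28%, 3.36% and 3.07% from bait 2.

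On the other flank, the gene-free stretch from Sox14 to Il20rb is 582 kb long and ends near the CTCF bait. It held 12.3% and 10.8% from bait 1 and 10.96%, 7.62% and 7.57% from bait 2. Bait 2 replicate 1 lay between the bait 1 samples and the other bait 2 samples were lower. The log2 ratio was -0.39 ± 0.19 (SE; edgeR adjusted p = 0.288), and with the replicate block -0.33 (edgeR adjusted p = 2.45e-05). Without bait 2 replicate 1 it was -0.61 (edgeR adjusted p = 0.0105). Cldn18, which encodes a tight-junction claudin, held 0.705% and 0.544% from bait 1 and 0.444%, 0.455% and 0.465% from bait 2, on 150 UMIs in all (log2 ratio -0.50 ± 0.20, SE; edgeR adjusted p = 0.245).

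**Figure D3:**
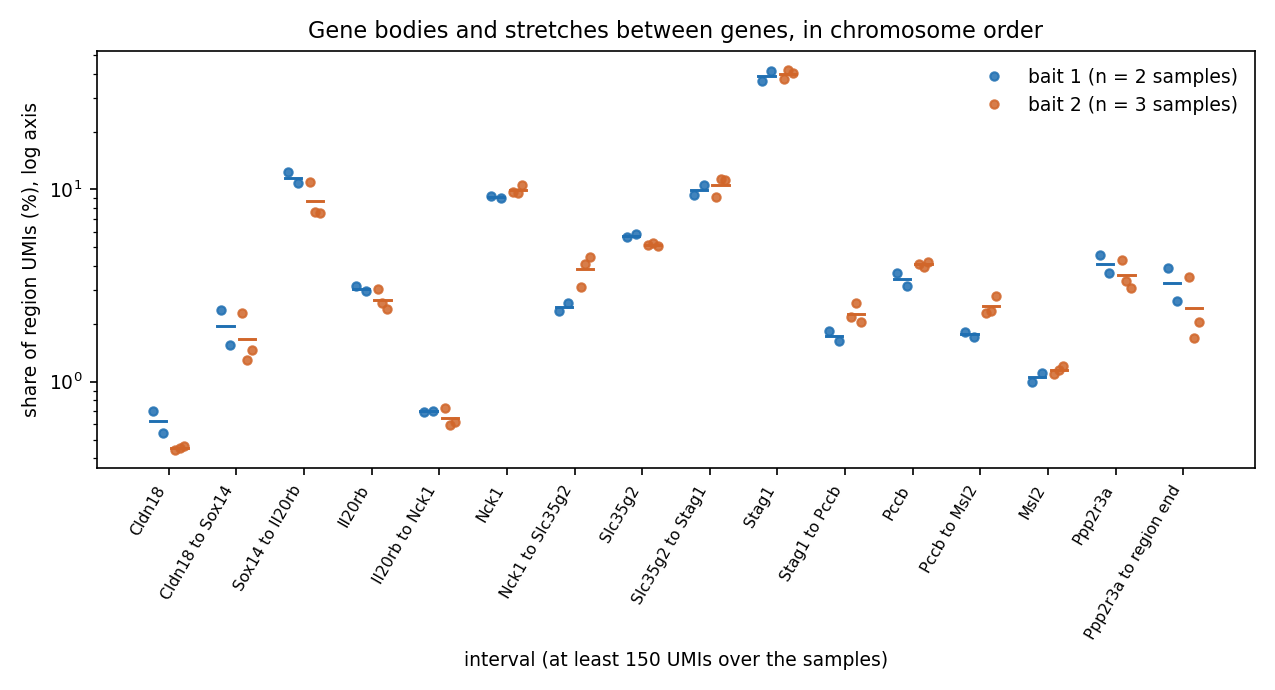
Share of the UMIs of the region (percent, log axis) in gene bodies and the stretches between them, in chromosome order, for intervals with at least 150 UMIs. Points are samples, blue for bait 1 (n = 2) and orange for bait 2 (n = 3), and bars are means. In 7 intervals the samples do not overlap, with bait 2 above bait 1 at Nck1, between Nck1 and Slc35g2 (3.88% against 2.45% in the mean), between Stag1 and Pccb, at Pccb and from Pccb to Msl2 (2.47% against 1.77%), and below it at Slc35g2 and Cldn18.

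The side of the baits on which contacts lay was then compared. The share of the region's UMIs at coordinates lower than bait 1, the side of the first Stag1 start, Slc35g2 and Nck1, was 52.4% and 52.1% from bait 1 and 48.7%, 49.1% and 49.4% from bait 2. The samples did not overlap, and bait 2 was lower by a difference of -3.18 percentage points. The side was cut at bait 1 for both baits, and bait 2 lies 21.7 kb farther from it. The share was not scaled by distance, so distance and bait cannot be told apart in this difference. The two-sided exact permutation p was 0.1, the smallest that the 10 possible splits of 2 and 3 samples allow, so no difference could pass 0.05 in this design. The deeper samples differed by -3.67 percentage points and the shallower ones by -2.88. In NSC the same share was 53.4% and 53.7% in the samples of bait 1 and 48.7% in the only bait 2 library.

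Taken by distance from a sample's own bait, the difference changed direction with distance. Between 10 and 50 kb the lower-coordinate side held 78.8% and 79.1% of the UMIs of bait 1 and 35.0%, 43.3% and 42.3% of those of bait 2. The ends left out made this band uneven, and the side was set by bait 1 for both baits. For bait 1, 40 kb were counted at coordinates lower than bait 1 and 19.999 kb at higher ones. For bait 2 these lengths were 18.3 kb and 41.7 kb, since the counted stretch between the baits lies higher than bait 1. Between 50 and 100 kb, the lower-coordinate side held 68.6% and 66.8% of the UMIs of bait 1 and 74.5%, 74.8% and 73.3% of those of bait 2. Between 100 and 200 kb it held 51.5% and 45.5% from bait 1 and 62.3%, 59.2% and 59.0% from bait 2. The samples of the baits did not overlap in either band, with differences of 6.50 and 11.7 percentage points (two-sided exact permutation p = 0.1 in both, the smallest possible). Because the baits are shifted, the same band covers different sequence from each bait. From 200 to 500 kb the order turned, with 23.9% and 23.1% from bait 1 and 22.4%, 16.7% and 17.9% from bait 2 (exact permutation p = 0.2). From 500 kb to 1 Mb the samples overlapped, at 47.4% to 47.6% from bait 1 and 45.9% to 51.1% from bait 2.

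**Figure D4:**
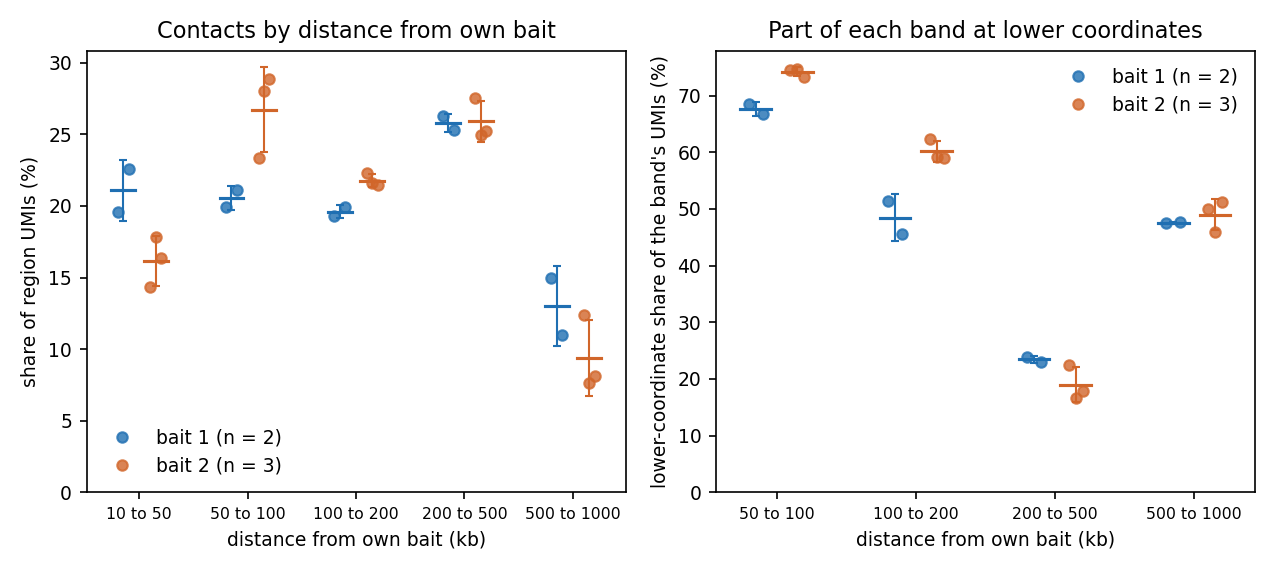
Left, share of the UMIs of the region (percent) by distance from a sample's own bait (kb); right, the part of each band's UMIs at coordinates lower than bait 1 (percent). Points are samples, blue for bait 1 (n = 2) and orange for bait 2 (n = 3), with bars for the mean and its SD. From 50 to 200 kb the bait 2 points lie above the bait 1 points in both panels, and from 500 kb to 1 Mb they overlap.

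The share of contacts within 100 kb of a sample's own bait did not separate the baits. It was 39.5% and 43.7% from bait 1 and 37.7%, 45.8% and 45.2% from bait 2, a difference of 1.29 percentage points (two-sided exact permutation p = 0.7). It was 3.90 without bait 2 replicate 1, -0.17 without replicate 2 and 0.15 without replicate 3 of that bait, and -0.82 and 3.41 without bait 1 replicates 1 and 4 or 2 and 3. Its parts moved in opposite directions. Between 10 and 50 kb, bait 1 had 19.6% and 22.6% and bait 2 had 14.3%, 17.8% and 16.3%. Between 50 and 100 kb, bait 1 had 19.9% and 21.1% and bait 2 had 23.4%, 28.0% and 28.8%. The samples did not overlap in either band (exact permutation p = 0.1 and 0.2). The nearer band was counted incompletely from both baits, since ends within 10 kb of the other bait were left out of it.

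Each bait was also seen from the other. Per 100 UMIs of the region, ends within 10 kb of bait 2 received 7.59 and 9.76 UMIs from bait 1, and ends within 10 kb of bait 1 received 9.95, 12.6 and 11.8 UMIs from bait 2. The samples did not overlap but the gap between the nearest, 9.76 and 9.95, was small. They overlapped with the 7 libraries as replicates, when thinned to equal depth, with every end counted a single time, with the replicate block and without bait 1 replicate 3. The difference of 2.80 UMIs had a two-sided exact permutation p of 0.2.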

How the data were processed

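The authors deposited 1 table per library of pairs of fragment ends, with counts of UMIs that were not normalised. Bowtie2 and mm10 are named in the submitters' processing notes; the rule for collapsing UMIs and the filters are not given in the sources used here. Rows whose partner was the commonest end of a file were kept, and genes came from GENCODE mouse release M21. Between 0.263% and 3.00% of the pairs of a file did not involve the bait end and were dropped. Shares are percentages of the UMIs of the region outside 10 kb of both baits, and libraries held 2860 to 9343 such UMIs. Intervals and limits from counts cover counting error only.

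Windows or intervals with at least 10 UMIs entered edgeR's quasi-likelihood test (R 4.3.3, edgeR 4.0.16, limma 3.58.1), taking each sample's region total as library size, with Benjamini-Hochberg adjustment over all windows or intervals. Averaged repeat libraries were rounded to whole counts. Standard errors of log2 ratios were derived from the F statistic of the test, as the size of the ratio over the square root of F. The distance-scaled fit added an offset from a lowess curve (fraction 0.3, statsmodels 0.14.6) of log share on log distance, pooled over both baits. The curve used windows counted in full and was extended as a straight line on these log scales to shorter distances. Shares were compared by two-sided exact permutation tests. Alternatives used TMM factors, DESeq2 1.42.0, other library sizes, filters, depths, exclusions, regions and windows, and left out each library.

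Deviations from the bait means were correlated over windows between libraries of the same number (r = 0.40, 0.28 and 0.13). As all exceeded 0.1, the numbers were taken to pair the samples, from the data and not from the labels. The block used replicates 1, 2 and 3 of each bait, of which replicates 2 and 3 of bait 1 are repeats of each other. The correlations are therefore not from 3 independent pairs and cannot establish the pairing. Of these replicates, replicate 1 was also the deepest library of both baits. Block results are given as an alternative only.

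Windows are named by size of change among those called without overlap of samples, as the 3 highest beyond 100 kb, or by holding the first Stag1 start, its end, the CTCF bait or Sox14. Members, lists and tests were chosen with earlier results of these data known.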

Additional observations from a re-analysis of the deposited data

How the results depend on the processing

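The lower-coordinate share stayed below 0 in its difference under all alternatives run, at -3.53 to -3.00 percentage points when libraries were left out, -3.26 with the 7 libraries as replicates, and -2.10 with ends within 20 kb of a bait left out, the largest move. The exact test could not pass 0.05 in the main design, so these values bear on direction only. They are not scaled by distance, and bait 2 lies farther from that side. The Stag1 difference of 1.01 percentage points became 5.04 with each end counted once, and turned to -0.42 in a region of 500 kb on each side and ranged from -0.0024 to 2.29 when single libraries were left out and from -1.19 to 3.22 with repeat pairs left out too. The near-share difference of 1.29 became 6.01 with each end counted once and 3.47 with a limit of 200 kb, turned to -0.27 in that region and to -4.91 with a limit of 50 kb, and ranged from -0.17 to 3.90, or from -0.82 with repeat pairs left out too. The reciprocal difference ranged from 1.71 to 3.89 UMIs per 100. The count of 1 called window became 2 with TMM factors, 0 with DESeq2 (6 at an unadjusted p under 0.05), 4 with 7 libraries, 2 with the deeper library of each repeat pair, 0 when thinned to 2860 UMIs, 0 with each end counted once, 0 with 20 kb around the baits left out (which removes the called window), 6 with the replicate block, 2 with 10 kb windows, and 0 to 12 when libraries were left out. The count of 3 distance-scaled calls, all higher from bait 2, became 1 with TMM factors, 0 with DESeq2 and 1 with all chromosome 9 UMIs as library size (both single calls higher from bait 1 and none of the 3 kept), 11 with 7 libraries, 0 when thinned, 1 with ends counted once, 7 with 20 kb left out, 9 with the block, 0 in the 500 kb region, 8 with a lowess fraction of 0.6 (added after seeing the data), and 0 to 10 when libraries were left out. The count of 0 intervals became 2 with 7 libraries, 5 with the block, and 0 to 4 when libraries were left out. The replicate block changed no other call. The median chi-square per degree of freedom across baits, 2.15, became 1.56 when thinned, 1.31 with ends counted once, 1.601 with 20 kb left out and 3.06 with 40 kb windows, and ranged from 1.63 to 2.76 when libraries were left out. Among named windows, these log2 ratios changed sign. The CTCF bait window became 0.11 with TMM factors, 0.15 with DESeq2 and 0.0015 with all chromosome 9 UMIs. The window at 100740001 became 0.15, 0.19 and 0.033 under the same settings, 0.082 when thinned and 0.26 with ends counted once. The first Stag1 start became -0.072 with the block and -0.027 in the 500 kb region, and with ends counted once the window at 100480001 became 0.0076 and that at 100600001 became 0.41. When libraries were left out, the Sox14 window ranged from -0.74 to 0.058, the CTCF bait window from -0.23 to 0.14, the first Stag1 start from -0.11 to 0.21 (-0.12 with repeat pairs) and the window at 100740001 from -0.096 to 0.15 (-0.22 to 0.17 with repeat pairs). The median of all window ratios was -0.01 with TMM factors and 0.01 with DESeq2, against -0.15. The cause of these changes was not tested. At these depths windows of few UMIs carry wide errors, and n = 2 for bait 1 limits every comparison.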
